A study of Saccharomyces cerevisiae with 4 samples.

Results

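The genes described here encode 6 flavin-binding reductases or relatives of such enzymes in Saccharomyces cerevisiae: OYE2 (YHR179W) and OYE3 (YPL171C), which make the old yellow enzymes, the quinone reductase LOT6 (YLR011W), and the flavodoxin-like proteins PST2 (YDR032C), YCP4 (YCR004C) and RFS1 (YBR052C). They were chosen by name, with earlier results of these data known, and all 6 were found among the 6211 open reading frames of the deposited table. Each had a value on all 4 arrays, so all 6 passed the minimum of 3 arrays that left 5112 genes in the test. The arrays compared cultures exposed for 1 h to 10 µg/ml b-lapachone in DMSO with cultures exposed to the vehicle, 1% DMSO. Both kinds of culture were the haploid laboratory strain BY4741 (MATa, his3Δ1, leu2Δ0, LYS2, met15Δ0, ura3Δ0), in log phase in YPD rich medium at 28 °C and an absorbance of 0.6. Each array held RNA of 1 treated and 1 vehicle culture (n = 4 biological replicates, per the series' design text), with treated RNA in Cy3 on replicates 1 and 3 and in Cy5 on replicates 2 and 4.

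Old yellow enzymes carry FMN, take electrons from NADPH and reduce the double bonds of unsaturated aldehydes and ketones, and they also reduce quinones. Lot6 is an FMN enzyme that reduces quinones with NADH or NADPH by transferring an electron pair, so that the unstable semiquinone is bypassed, and it binds the 20S proteasome. Pst2, Ycp4 and Rfs1 share a flavodoxin-like fold with bacterial WrbA, a quinone reductase, and have been found in yeast at eisosomes, furrows of the plasma membrane. b-Lapachone is a naphthoquinone. In mammalian cells the quinone reductase NQO1 reduces it to a hydroquinone that oxygen oxidises back, a cycle that consumes NAD(P)H and yields reactive oxygen.

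Values are log2 ratios of the channels of an array, so they give a difference between treated and vehicle RNA and no level of either. Base 2 is an assumption, and the deposited table does not state which channel is on top. The columns were read as b-lapachone over vehicle on every array. That reading is likely rather than settled. All 6 pairs of arrays correlated above 0 over 4671 to 5084 open reading frames. The dyes were swapped between replicates 1 and 2 (r = 0.10), 1 and 4 (0.25), 2 and 3 (0.29) and 3 and 4 (0.44). Replicates 1 and 3 (0.48) and replicates 2 and 4 (0.39) had the same dye orientation. Dye bias shared by all arrays could also give positive correlations. In this reading SRX1 (sulfiredoxin) and TRX2 (thioredoxin), genes known to be induced by oxidants, lay at 1.35 and 0.96. Both were named after their values were seen, so they do not test the direction. The opposite direction would exchange every sign given here. In bulk RNA a small shift in every cell and a larger one in some of the cells cannot be told apart. Column medians of all open reading frames lay between -0.02 and 0.00, and the precision is limited by the number of arrays: over all genes tested the standard error of the mean had a median of 0.109. Of 7 genes typical of a cells all had values on at least 1 array, as did 3 of 4 genes typical of alpha cells. A ratio does not show which set is the more abundant, so the mating type was not checked. Of the 4 auxotrophic marker genes deleted in whole or in part in BY4741, HIS3 and URA3 had values on all 4 arrays, so a value in the table does not show that a full transcript was present. Among the a-cell genes 3 were called, all lower in treated cells (BAR1, AGA2 and ASG7), beside 0.959% of all genes tested called lower. STE6 (-0.22), STE2 (-0.11) and MFA2 (0.07) were not called, and MFA1 was not tested. The part of the 3 called genes in the results below was not tested.

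None of the 6 genes changed after 1 h with b-lapachone at the threshold used (limma, Benjamini-Hochberg adjusted p below 0.05 over all genes tested). Over all genes the fit called 155 of 5112, or 3.03%: 2.07% higher and 0.959% lower in treated cells. At an unadjusted p under 0.05 the 6 genes had 2 members, YCP4 and RFS1, both with lower values in treated cells, against 18.8% of all genes tested. YCP4 came nearest to the threshold, with a mean of -0.43 ± 0.23 on the log2 scale (SD, n = 4; adjusted p = 0.0602). Means lay below 0 for 5 genes, against more than 52.4% of all genes tested, and above 0 for OYE2 alone. The sign was the same on all 4 arrays for 3 of the 6 genes, and for 26.5% of the 4574 genes with 4 values. The median of the 6 means was -0.16, beside -0.01 over all genes tested.

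**Figure D1:**
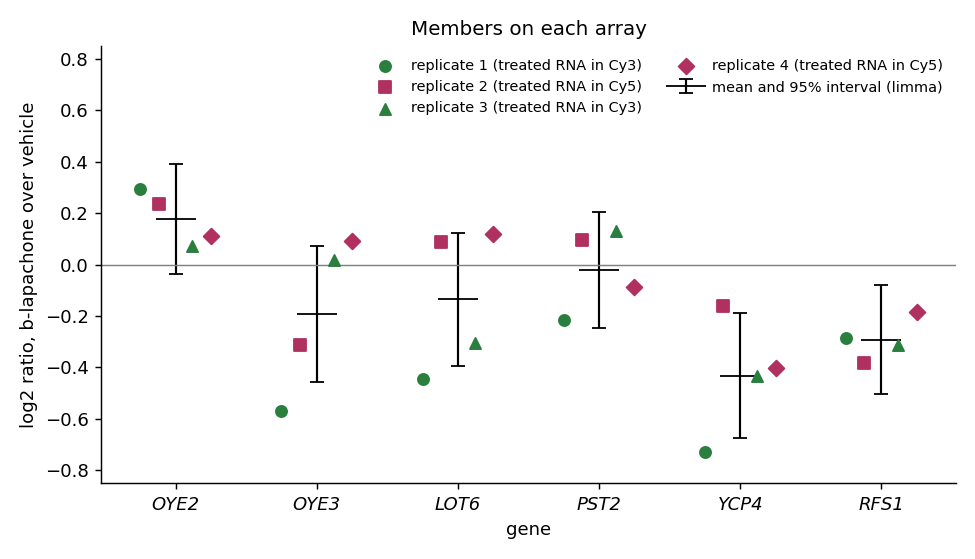
Log2 ratio of b-lapachone over vehicle for each of the 6 genes on each of the 4 arrays, with the mean and the 95% interval of limma; symbols mark replicates and colours the dye of treated RNA. YCP4 and RFS1 lay below 0 on all 4 arrays and OYE2 above 0 on all 4, while OYE3, LOT6 and PST2 had values on both sides of 0.

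OYE2, which encodes an NADPH dehydrogenase of the old yellow enzyme family, had log2 ratios of 0.29, 0.24, 0.07 and 0.11 on replicates 1 to 4. All 4 values were above 0, and none reached 0.3. Its mean was 0.18 ± 0.10, or 1.13-fold higher in treated cells, and it did not pass the test (95% interval -0.04 to 0.39; limma, Benjamini-Hochberg adjusted p = 0.348). The upper end of that interval corresponds to a 1.31-fold higher level in treated cells. OYE2 varied little between arrays: its SD was larger than that of 12.3% of the 4574 genes with 4 values.

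OYE3, its close relative, had -0.57, -0.31, 0.02 and 0.09 on replicates 1 to 4. Replicates 1 and 2 were clearly low and replicates 3 and 4 were near 0, a split that does not follow the dye. The mean was -0.19 ± 0.31, or 1.14-fold lower in treated cells (95% interval -0.46 to 0.07; limma, Benjamini-Hochberg adjusted p = 0.416). The SD of OYE3 exceeded that of 83.6% of genes with 4 values. Without replicate 1 its mean was -0.07, and without replicate 4 it was -0.29.

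The means of the old yellow enzymes thus differed in sign, though neither was called and both genes lay above 0 on replicates 3 and 4. Within arrays, OYE2 exceeded OYE3 by 0.86, 0.55, 0.05 and 0.02 on replicates 1 to 4. The mean difference of the log2 ratios was 0.37 ± 0.41 and lay above 0 on 4 of 4 arrays, but nearly all of it came from replicates 1 and 2. In an exact sign-flip permutation test (two-sided), 2 of the 16 sign patterns gave a mean difference at least as large, the fewest that 4 arrays allow, and the permutation p after Benjamini-Hochberg adjustment over the 4 pairs of members compared was 0.167. With 4 arrays this test could not reach 0.05, so it could not decide whether these genes differed. Probes of genes as similar as these can cross-hybridise, so their separate values are uncertain; no probe sequences were used here.

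LOT6 had -0.44, 0.09, -0.30 and 0.12 on replicates 1 to 4. The low values were on the arrays with treated RNA in Cy3 and the values above 0 on those with treated RNA in Cy5, so the sign followed the dye. Its mean was -0.14 ± 0.28, or 1.10-fold lower in treated cells (95% interval -0.39 to 0.12; limma, Benjamini-Hochberg adjusted p = 0.572). The mean of the Cy5 arrays was 0.10 and that of the Cy3 arrays -0.37. The dye coefficient of LOT6, which is 0.5 times that difference, was 0.24, with an unadjusted p of 0.0269 and a Benjamini-Hochberg adjusted p of 0.455 in limma.

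For the other members the dye coefficient was smaller in size. It was 0.15 for YCP4, 0.08 for OYE3, 0.02 for PST2, 0.01 for RFS1 and -0.00 for OYE2, none of them called (adjusted p from 0.637 to 0.994). Over all genes the dye coefficient was called for 2 of 5112, or 0.0391%, and 499 had an unadjusted p under 0.05. Were the deposited columns a fixed ratio of the dyes rather than of the treatments, these coefficients would be the treatment differences up to a common sign, and again limma would call 0 of the 6 genes, with 1 below 0.05 before adjustment.

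**Figure D2:**
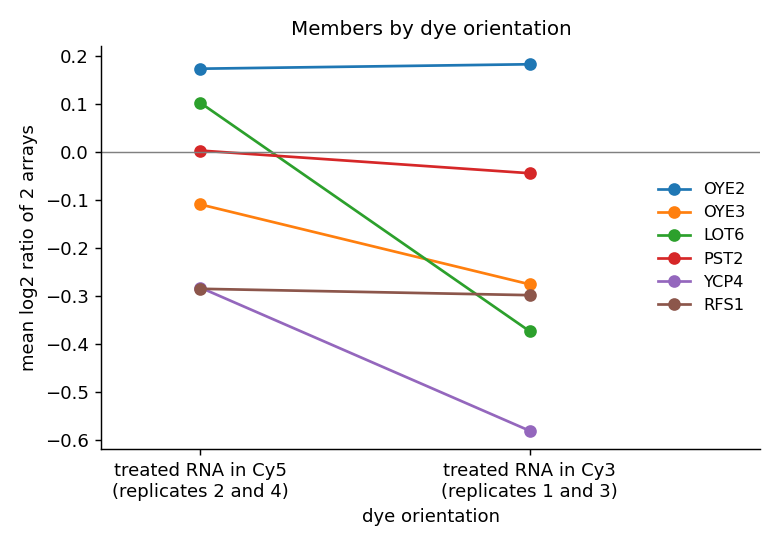
Mean log2 ratio of each gene over the arrays with treated RNA in Cy5 (left) and in Cy3 (right); lines join the means of 1 gene. LOT6 lay at 0.10 in Cy5 and -0.37 in Cy3, and YCP4 at -0.28 and -0.58, whereas OYE2, RFS1 and PST2 differed little between orientations.

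YCP4 had the lowest mean of the 6 genes. Its log2 ratios were -0.73, -0.16, -0.43 and -0.40 on replicates 1 to 4. All 4 were below 0, with replicate 1 the lowest and replicate 2 the nearest to 0. The mean of -0.43 corresponds to a 1.35-fold lower level in treated cells (95% interval -0.67 to -0.19). It ranked 78 from the lowest of the 5112 means, within the lowest 1.53%. On single arrays YCP4 stood above 2.22%, 24.0%, 5.77% and 3.69% of the open reading frames measured on replicates 1 to 4.

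The adjusted p of YCP4 (0.0602 in limma) depended on the settings. It fell below the threshold under 7 of the 13 alternatives, among them a dye coefficient (adjusted p = 0.0381), array weights (0.0320) and the omission of replicate 2 (0.0473). It reached 0.345 with each gene's own variance and 0.337 without replicate 3. The mean lay between -0.52 and -0.33 under all 13. YCP4 is therefore given as not called, close to the threshold.

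RFS1 had -0.28, -0.38, -0.31 and -0.19 on replicates 1 to 4. All 4 values were below 0 and they lay close together, with a range of 0.198. The mean was -0.29 ± 0.08, or 1.22-fold lower in treated cells (95% interval -0.50 to -0.08; limma, Benjamini-Hochberg adjusted p = 0.140). Its SD was larger than that of 6.93% of the genes with 4 values. RFS1 did not pass the test under any of the 13 alternatives (adjusted p from 0.0918 to 0.467). Values below 0 on all 4 arrays were found for 626 of 4574 genes with 4 values, or 13.7%, so the constant sign of YCP4 and RFS1 is shared with many genes.

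PST2, the third flavodoxin-like gene, had -0.22, 0.09, 0.13 and -0.09 on replicates 1 to 4. Replicates 2 and 3 were above 0 and replicates 1 and 4 below it. The mean was -0.02 ± 0.16 (95% interval -0.25 to 0.20; limma, Benjamini-Hochberg adjusted p = 0.933), near the middle of all genes tested, at percentile 48.5. That interval runs from 0.844 to 1.15 times the vehicle level. The sign of the PST2 mean turned when replicate 1 or replicate 4 was left out.

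Within arrays, PST2 exceeded YCP4 by 0.51, 0.26, 0.56 and 0.31 on replicates 1 to 4, with a mean difference of 0.41 ± 0.15. PST2 exceeded RFS1 by 0.07, 0.48, 0.44 and 0.10, with a mean of 0.27 ± 0.22. Both differences had the same sign on 4 of 4 arrays, and in each case 2 of the 16 sign patterns were as large, the fewest possible (exact permutation p adjusted over the pairs, 0.167). YCP4 minus RFS1 was -0.44, 0.22, -0.12 and -0.22, with a mean of -0.14 ± 0.28 (8 of 16 sign patterns as large in the exact permutation test). With 4 arrays no pair could reach 0.05, so differences within the flavodoxin-like proteins remain undecided.

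From lowest to highest the means ran YCP4, RFS1, OYE3, LOT6, PST2 and OYE2. No neighbours in that order differed by more than the SD of their within-array difference, and each neighbouring pair kept its order on 3 of 4 arrays. The lowest gene was YCP4 on replicates 1, 3 and 4 and RFS1 on replicate 2. The highest was OYE2 on replicates 1 and 2, PST2 on replicate 3 and LOT6 on replicate 4. The 6 genes were spread over 1.02 log2 units on replicate 1 and over 0.521 to 0.619 on the others. Replicate 1 also had the widest spread over all open reading frames, with an SD of 0.379 against 0.272 to 0.308.

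**Figure D3:**
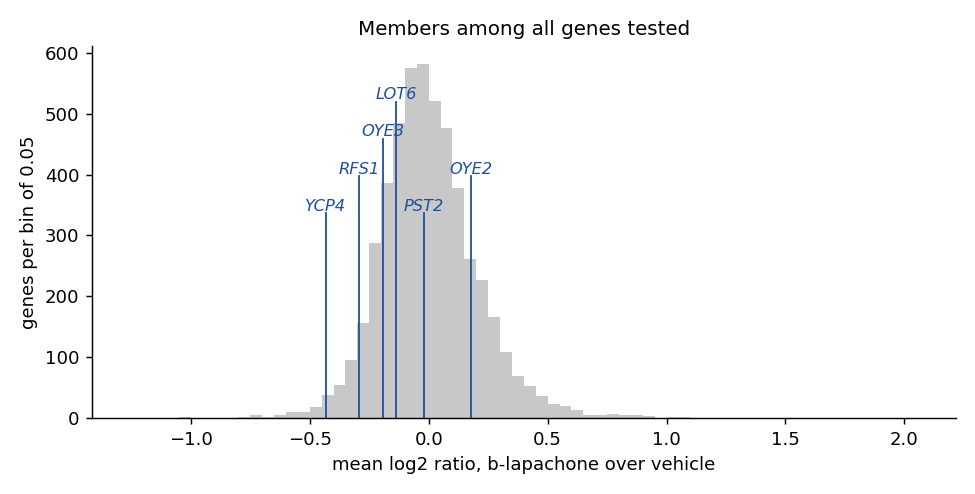
Histogram of the mean log2 ratio (b-lapachone over vehicle) of all 5112 genes tested, with a vertical line at each of the 6 genes; the heights of the lines carry no value. YCP4 and RFS1 stood in the lower tail at -0.43 and -0.29, and the other members lay within the bulk of the genes.

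Some genes had values very close to a member's on all 4 arrays, measured as the root-mean-square difference of the log2 ratios over the arrays, among 4573 other genes. SUP35 (0.0227) and TFA1 (0.0381) were nearest to OYE2, and ALT2 (0.0814) and RNH202 (0.0871) to OYE3. YKR012C (0.0382) and YLR444C (0.0407) were nearest to LOT6, and YDL218W (0.0289) and IFM1 (0.0388) to PST2. For YCP4 they were YNL057W (0.0777) and YSA1 (0.0842), and for RFS1 SPP382 (0.0516) and GYL1 (0.0570). YCP4 and OYE3 had 4 and 3 genes within 0.1, whereas PST2 had 124 and OYE2 58. A fixed distance holds fewer genes the further a pattern lies from the bulk. YCP4 stood at percentile 1.53 of the means and PST2 at 48.5, and the SD of OYE3 exceeded that of 83.6% of genes with 4 values. None of the 12 nearest genes was called, which follows largely from their choice by values close to those of uncalled members. No member was among the 2 nearest genes of another, and the least difference between members was 0.262, between OYE3 and RFS1.

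Each of the 6 members had 1 neighbour on each side in the R64 gene order, and all of these but REG2 were tested. Of the neighbours tested, 2 were called, beside 3.03% of all genes tested. CIT2, the peroxisomal citrate synthase that lies beside YCP4, had 0.54, 0.53, 0.87 and 0.41 on replicates 1 to 4. It rose by 0.59 ± 0.20 (limma, Benjamini-Hochberg adjusted p = 0.0115), the opposite sign to YCP4, and lost its call without replicate 3 (adjusted p = 0.165). YBR053C, beside RFS1, had -0.67, -0.18, -0.51 and -0.58 and fell to -0.49 ± 0.21 (adjusted p = 0.0346), the same sign as RFS1. Its call was lost when replicates 1, 3 or 4 were left out (adjusted p = 0.0665, 0.272 and 0.159).

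The remaining neighbours did not pass the test. Beside OYE2, STB5, a regulator of genes for NADPH production, lay at 0.11 ± 0.60 with 0.89 on replicate 1 and -0.55 on replicate 3, and YHR180W lay at 0.42 ± 0.30 (limma, adjusted p = 0.0887). YHR180W was called with array weights and without replicate 2 (adjusted p = 0.0380 and 0.0325). COX10 and DAP1, beside OYE3, were at -0.27 ± 0.57 and -0.25 ± 0.37 on 3 arrays each. Without 1 replicate COX10 ranged from -0.60 to -0.06 and DAP1 from -0.45 to -0.08. TEN1 and YLR012C, beside LOT6, were at -0.08 ± 0.30 and -0.09 ± 0.17. MIX14 and MRH1, beside PST2, were at -0.27 ± 0.05 (n = 3) and 0.09 ± 0.38, and MRPL32, on the other side of YCP4, was at -0.21 ± 0.12. REG2, beside RFS1, had a value on 1 array and was not tested.

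Related genes were taken from 6 lists, chosen with earlier results of these data known. Over all genes tested, limma called 3.03%, and 18.8% had an unadjusted p under 0.05. The counts of each list are to be read beside these shares. Of 20 other flavin-dependent and related reductases tested, 1 fell and none rose, 4 had an unadjusted p under 0.05 in limma, and the means had a median of -0.01. The fall was in NDE1, an NADH dehydrogenase on the outer face of the inner mitochondrial membrane. It had -0.58, -0.28, -0.59 and -0.51 on replicates 1 to 4, with a mean of -0.49 ± 0.14 (adjusted p = 0.0253), and its call was lost without replicate 3 or replicate 4 (adjusted p = 0.255 and 0.114). FRM2 and HBN1, which encode nitroreductase-like proteins, were not analysed here.

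Old yellow enzymes and Lot6 need FMN. The genes for riboflavin, FMN and FAD supply had 8 of 10 means above 0, with a median of 0.22. Over all genes tested, more than 52.4% of means lay below 0. None was called in limma (0 of 10), and 6 had an unadjusted p under 0.05. RIB4, lumazine synthase of riboflavin synthesis, was the largest in size, at 0.46 ± 0.29 (adjusted p = 0.0622), with 0.04 on replicate 1 and 0.49 to 0.69 on the others. It passed without replicate 1 (adjusted p = 0.00790) and under 5 other alternatives. FMN1, the riboflavin kinase that makes FMN, lay at -0.34 ± 0.05 (adjusted p = 0.0828) and was named after its values were seen.

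The genes for synthesis of coenzyme Q, the quinone of the respiratory chain, had all 11 means below 0 and a median of -0.23, beside -0.01 for all genes. Means below 0 were also found for more than 52.4% of all genes tested. None of the list was called in limma (0 of 11), and 4 had an unadjusted p under 0.05, against 18.8% of all genes tested. COQ11 was largest in size at -0.39 ± 0.36 (limma, adjusted p = 0.142). With a dye coefficient it was called lower (adjusted p = 0.0486), the 1 gene of the list to be so, beside 223 of all 5112 genes. The median of the list was -0.38 and -0.28 on replicates 1 and 3, the arrays with treated RNA in Cy3, and -0.00 and 0.07 on replicates 2 and 4, so it moved with the dye. Gene by gene, limma called the dye coefficient for 0 of the 11, with 5 at an unadjusted p under 0.05.

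Among genes of eisosomes and the membrane domain around them, where Pst2, Ycp4 and Rfs1 have been found, 1 of 10 fell and none rose, with a median of -0.04 (4 at an unadjusted p under 0.05). SUR7, a membrane protein of that domain, had -0.36, -0.40, -0.49 and -0.38 and a mean of -0.41 ± 0.06 (limma, adjusted p = 0.0434). It was no longer called without replicates 2, 3 or 4 (adjusted p = 0.0825, 0.305 and 0.158), or when genes with values on at least 2 arrays were tested (0.0544). With a dye coefficient 3 genes of the list were called lower and 1 higher, beside 223 of all 5112 genes called in that fit. The other 5 of the 15 genes were not tested, with values on 2 arrays at most.

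Regulators of reductase genes, among them YAP1 and SKN7 of the oxidant response, had a median of 0.14, with 0 of 7 called in limma and 2 at an unadjusted p under 0.05. YRR1, an activator of drug resistance genes, was the largest in size at 0.56 ± 0.75 (n = 3), with 1.38, -0.09 and 0.37 on replicates 2, 3 and 4. Its mean was 0.14 without replicate 2 and 0.88 without replicate 3. In the supply of NADPH, from which old yellow enzymes draw electrons, 2 of 11 genes rose and 1 fell, 6 had an unadjusted p under 0.05 in limma, and the median was 0.16. GND1 and GND2, the 6-phosphogluconate dehydrogenases, rose by 0.42 ± 0.08 and 0.50 ± 0.19, and ALD6, the cytosolic aldehyde dehydrogenase, fell to -0.75 ± 0.20. Without replicate 3 none of these 3 calls was left (limma, adjusted p from 0.0588 to 0.227). GND1 also lost its call without replicates 2 or 4 (adjusted p = 0.0865 and 0.189) and over genes with values on at least 2 arrays (0.0537), and GND2 without replicates 1 or 4 (adjusted p = 0.0559 and 0.126).

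**Figure D4:**
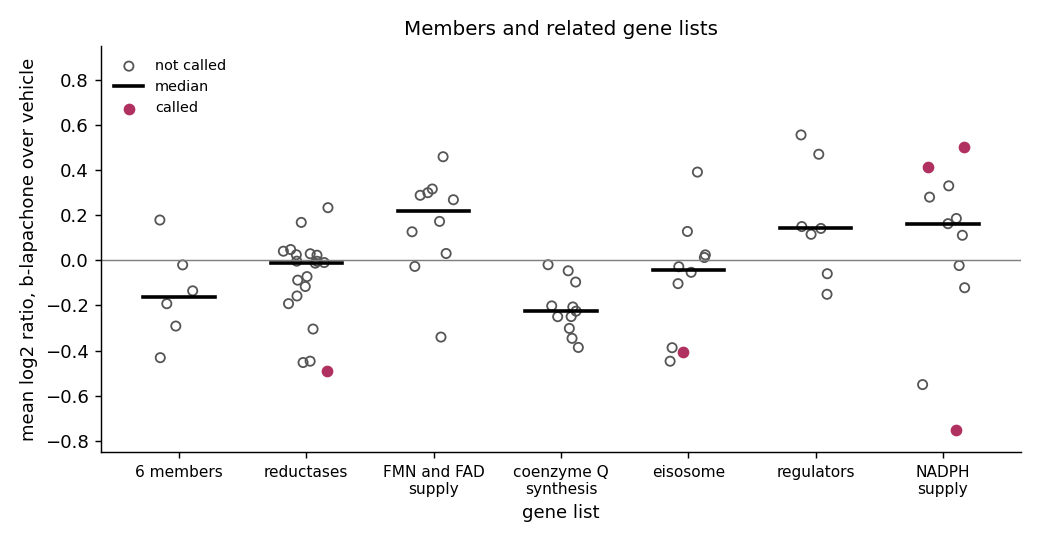
Mean log2 ratio (b-lapachone over vehicle) of the 6 genes and of the genes tested in 6 related lists; each point is 1 gene, filled where called, and bars mark medians. Calls were few: NDE1 and SUR7 fell, GND1 and GND2 rose and ALD6 fell, and all coenzyme Q genes lay below 0, none called in the fit without a dye term.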

How the data were processed

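The authors deposited 1 table of the 4 two-colour arrays, and its values were read as log2 ratios between channels. How the images were scanned, corrected and normalized, the log base and the direction of the ratio: not given in the sources used here. The sources state that the 4 replicates are biological. Replicates 1 to 4 had values for 5176, 5534, 5179 and 4819 open reading frames, and the table has no signals by which to mark dim or saturated spots.

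Genes with values on at least 3 arrays were set against 0 in limma 3.58.1 under R 4.3.3 (intercept only, eBayes, two-sided, Benjamini-Hochberg, threshold 0.05). The procedure was also run on simulated data without dye or array effects, and no result given here rests on that run. Errors are SDs over arrays; intervals are 95% from limma's moderated standard error. A dye coefficient was fitted separately. Pairs of members were compared by exact sign-flip tests. Names and gene order came from RefSeq R64 (5638 of 6211 rows matched). The members and lists were chosen with earlier results of these data known. The text names the members, the 2 genes nearest to each, the neighbours on each side, and the called genes of each list, or the 1 largest in size where none was called. Alternatives tried were the dye in the fit, arrays that were centred, scaled or quantile-normalized, a robust prior, a minimum of 4 or of 2 arrays, each gene's own variance, array weights and the omission of each replicate; those on lists and neighbours were chosen after seeing the data.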

Additional observations from a re-analysis of the deposited data

How the results depend on the processing

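Each array already pairs a treated with a vehicle culture, so the fit of the ratios used that pairing. The 4 arrays form 1 group, and no further pairing between arrays was made. OYE2, OYE3, LOT6 and RFS1 kept their sign and stayed uncalled under all 13 alternatives. YCP4 kept its sign. It was called with a dye coefficient (-0.43), scaled arrays (-0.41), quantile-normalized arrays (-0.42) and values on 4 arrays (-0.43). It was also called with a robust variance prior (-0.43), array weights (-0.41) and without replicate 2. In each of these 7 settings 1 of the 6 genes was called, in place of 0. All genes called in them numbered, in the same order, 223, 191, 185, 175, 185, 274 and 148, against 155 in the main fit. These counts are of 5112 genes tested, or of 4574 for values on 4 arrays. PST2 turned to 0.014 with array weights. Without 1 replicate at a time the means ranged from -0.52 to -0.33 for YCP4, from -0.070 to 0.045 for PST2 (above 0 without replicate 1 and, at 0.0021, without replicate 4), from 0.14 to 0.21 for OYE2, from -0.29 to -0.07 for OYE3, from -0.22 to -0.03 for LOT6 and from -0.33 to -0.26 for RFS1, and the 6 genes had 0 to 1 calls. All genes called numbered 155, and 26 to 151 without 1 replicate (26 without replicate 3, 63 without replicate 4), 0 with each gene's own variance and 274 with array weights. The dye coefficient was called for 2 genes, 4 on scaled arrays and 0 with own variance. Differences within pairs kept their sign without any 1 replicate, from 0.21 to 0.49 for OYE2 minus OYE3, 0.36 to 0.46 for PST2 minus YCP4, 0.20 to 0.34 for PST2 minus RFS1 and -0.26 to -0.04 for YCP4 minus RFS1. Of the neighbours, STB5 turned to -0.061 with array weights and ranged from -0.14 to 0.33 without 1 replicate, MRH1 from -0.053 to 0.20, TEN1 from -0.18 to 0.061 and YLR012C from -0.17 to -0.04. The cause of these changes was not tested.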
